A study of Caenorhabditis elegans with 14 samples.

Results

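Among the worm's piRNAs, 4 transcripts with many reads lie outside the broad piRNA domains of chromosome IV: F31A9.7 (21ur-9757) on chromosome X, Y22D7AR.15 (21ur-13507) on chromosome III, and H23L24.8 (21ur-14550) and F33D4.9 (21ur-11668) on chromosome IV. They are 4 of 15366 piRNAs listed in a pair of small RNA libraries. Of the listed piRNAs with a place in the genome, 962 lie outside the domains, 313 of them on chromosome IV and 649 on other chromosomes, and each group gave its top 2. Members were selected on mean count over both libraries, within each position group. The domains were set as 4 to 7 Mb and 13 Mb to the end of the chromosome. The libraries' ratios were already known at that point, so the values below describe these 4 piRNAs and test nothing.

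Both libraries came from whole young adults of Caenorhabditis elegans strain N2, the laboratory wild type, grown at 20 °C and fed on bacteria for RNA interference from a larval stage that the labels give as either L1 or L2. In the snpc-4 RNAi library the bacteria made double-stranded RNA against snpc-4. In the control RNAi library they carried L4440, the feeding vector without a target gene. Each group is 1 library, so no difference has a replicate check and no p-value is given. Each statement compares 2 libraries, not 2 conditions, and 95% intervals cover counting error only. Since PCR copies were not told apart by molecular identifiers, the intervals may be too narrow.

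Worm piRNAs, also called 21U-RNAs, are germline small RNAs that guide the Argonaute protein PRG-1 to foreign and some native transcripts. Most are transcribed one by one from small genes packed into the domains of chromosome IV, each with an upstream promoter motif. SNPC-4 is the worm counterpart of a DNA-binding subunit of the SNAP complex, known for its part in transcription of small nuclear RNA genes, and it acts at piRNA genes of these domains. A further kind of worm piRNA, called type II, is made from the start sites of ordinary RNA polymerase II genes across the genome and lacks that motif. Which kind each of the 4 belongs to was not analysed here, and their sequences were not used here. The comparison asks whether piRNAs from outside the domains follow the piRNA class when snpc-4 is targeted.

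The snpc-4 RNAi library holds 1074622 listed counts and the control library 956653. Count divided by RPM gives 1 constant per library, equal to a total of 20875010 for snpc-4 RNAi and 20413480 for the control, and which reads these totals include is not stated in the sources used here. At these constants, 1 read is worth 0.0479 RPM in the snpc-4 RNAi library and 0.0490 RPM in the control library. A transcript at 0 counts may still be present at up to 3 counts, which is 0.144 RPM in the snpc-4 RNAi library and 0.147 RPM in the control library. All piRNAs summed to 1537 RPM in the snpc-4 RNAi library and 3176 RPM in the control library, a ratio of 0.484. All matched piRNAs are annotated at 21 nucleotides, so no length correction was made between them. Whether different piRNA sequences were captured equally well was not tested.

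The 4 piRNAs did not move as one. F31A9.7 was higher in the snpc-4 RNAi library, H23L24.8 was lower by about as much as the class, and Y22D7AR.15 and F33D4.9 had ratios whose intervals include 1. Of the 4, 2 were higher, against 10.4% of the 560 piRNAs averaging 10 or more counts. Of the 4, 1 had an interval of the ratio above 1, against 1.43% of the 560, and 1 had an interval below 1, against 58.6%. Some of the 560 reach the mean of 10 counts only through the library in which they are higher. The minimum thus has a part in every share of the 560 given here. Shares by interval also depend on read number, and the 4 were chosen for high counts.

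F31A9.7 is the most abundant piRNA outside the domains. It had 353 counts in the snpc-4 RNAi library (exact Poisson interval 317 to 392) and 224 in the control library (196 to 255). Its deposited abundance was 16.9 RPM in the snpc-4 RNAi library and 11.0 RPM in the control library, and the intervals do not overlap. The RPM ratio was 1.54 (exact conditional interval 1.30 to 1.83). Among all 15366 piRNAs it ranked 11 by count in the snpc-4 RNAi library and 39 in the control library.

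Y22D7AR.15 had nearly equal levels. Its counts were 101 in the snpc-4 RNAi library (82.3 to 123) and 94 in the control library (76.0 to 115). Its abundance was 4.84 RPM in the snpc-4 RNAi library and 4.60 RPM in the control library, with a ratio of 1.05 (0.785 to 1.41). A difference was not detectable at this depth. Its rank by count was 40 in the snpc-4 RNAi library and 89 in the control library.

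H23L24.8 was lower in the snpc-4 RNAi library, as the class was. It had 71 counts in the snpc-4 RNAi library (55.5 to 89.6) and 162 in the control library (138 to 189). Its abundance was 3.40 RPM in the snpc-4 RNAi library and 7.94 RPM in the control library, with a ratio of 0.429 (0.320 to 0.570), and the intervals of the counts do not overlap. Its rank hardly differed, 53 in the snpc-4 RNAi library and 52 in the control library. It was the only one of the 4 at least 2-fold lower on the log2 scale with 1 read added, a limit that 55.7% of the 560 piRNAs passed. It did not pass that limit when scaled by the median ratio over every transcript averaging 10 or more counts, with a log2 ratio of -0.78.

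F33D4.9 was the least abundant of the 4. It had 54 counts in the snpc-4 RNAi library (40.6 to 70.5) and 66 in the control library (51.0 to 84.0). Its abundance was 2.59 RPM in the snpc-4 RNAi library and 3.23 RPM in the control library, a ratio of 0.800 (0.548 to 1.16), and the intervals overlap. It ranked 72 in the snpc-4 RNAi library and 120 in the control library.

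**Figure D1:**
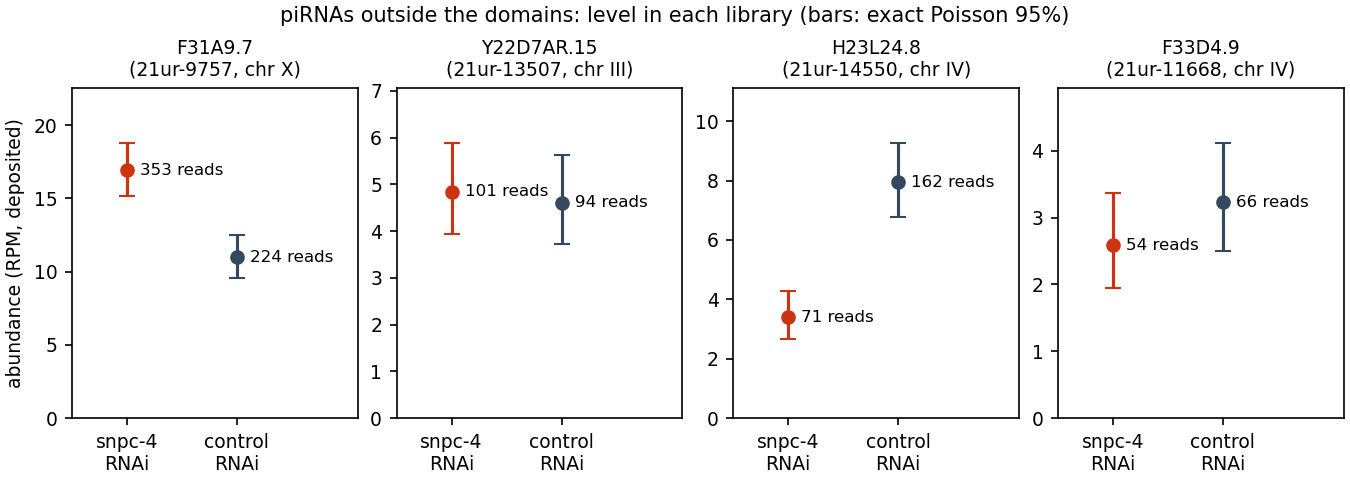
Deposited abundance in RPM of each of the 4 piRNAs in the snpc-4 RNAi library and the control RNAi library, with exact Poisson 95% intervals that cover counting error only and the count beside each point; each panel has its own axis from 0. The intervals are apart for F31A9.7 (16.9 and 11.0 RPM) and H23L24.8 (3.40 and 7.94 RPM) and overlap for Y22D7AR.15 and F33D4.9.

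The order of the levels changed between the libraries. In the snpc-4 RNAi library it was F31A9.7, Y22D7AR.15, H23L24.8 and F33D4.9, from high to low. Only the first had an interval apart from that of its neighbour. The intervals of the next 2 pairs overlapped, which does not show that their levels are equal. In the control library it was F31A9.7, H23L24.8, Y22D7AR.15 and F33D4.9, and there only the last 2 had overlapping intervals.

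Set against the piRNA class, 3 of the 4 had an interval above 1. A piRNA's ratio relative to all other piRNA counts does not depend on how the libraries are scaled, and it is the odds ratio of its counts against the rest of the class. It was 3.21 (exact conditional interval 2.70 to 3.81) for F31A9.7, 2.17 (1.63 to 2.91) for Y22D7AR.15 and 1.65 (1.13 to 2.41) for F33D4.9. These 3 thus took a larger part of the piRNA counts in the snpc-4 RNAi library than in the control library. For H23L24.8 it was 0.885 (0.660 to 1.18), an interval that includes 1. An interval above 1 was found for 14.6% of the 560 piRNAs. Intervals narrow with more reads, and the 4 were chosen for high counts, so that share is not at like depth.

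As a share of all piRNA counts, F31A9.7 made up 1.10% in the snpc-4 RNAi library and 0.346% in the control library. Y22D7AR.15 made up 0.315% in the snpc-4 RNAi library and 0.145% in the control library, and F33D4.9 0.168% in the snpc-4 RNAi library and 0.102% in the control library. H23L24.8 went the other way, with 0.221% in the snpc-4 RNAi library and 0.250% in the control library. The 4 together had 579 counts in the snpc-4 RNAi library and 546 in the control library, or 1.80% of piRNA counts in the snpc-4 RNAi library and 0.842% in the control library. Their summed RPM ratio was 1.04 (0.921 to 1.17), and F31A9.7 alone holds 61.0% of the 579 counts. Without the 4, the class ratio was 0.479 (0.473 to 0.486), so they hardly bear on it.

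The 4 also differed from each other. Of the 6 pairs among them, 5 had an odds ratio whose interval leaves out 1. The largest of them was F31A9.7 over H23L24.8, at 3.59 (2.57 to 5.05). Y22D7AR.15 over H23L24.8 was 2.45 (1.62 to 3.71), F31A9.7 over F33D4.9 was 1.92 (1.27 to 2.92) and F31A9.7 over Y22D7AR.15 was 1.47 (1.04 to 2.06). H23L24.8 over F33D4.9, both on chromosome IV, was 0.537 (0.332 to 0.868). Only Y22D7AR.15 over F33D4.9, at 1.31 (0.811 to 2.13), had an interval that includes 1. The 4 thus did not share 1 common ratio. Pairs of domain piRNAs were not counted in this way, and domain piRNAs differ from each other too. Those within 1.5-fold of the mean count of F33D4.9 had log2 ratios from -2.81 to 0.36. Nothing particular to the 4 is therefore read from these pairs.

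**Figure D2:**
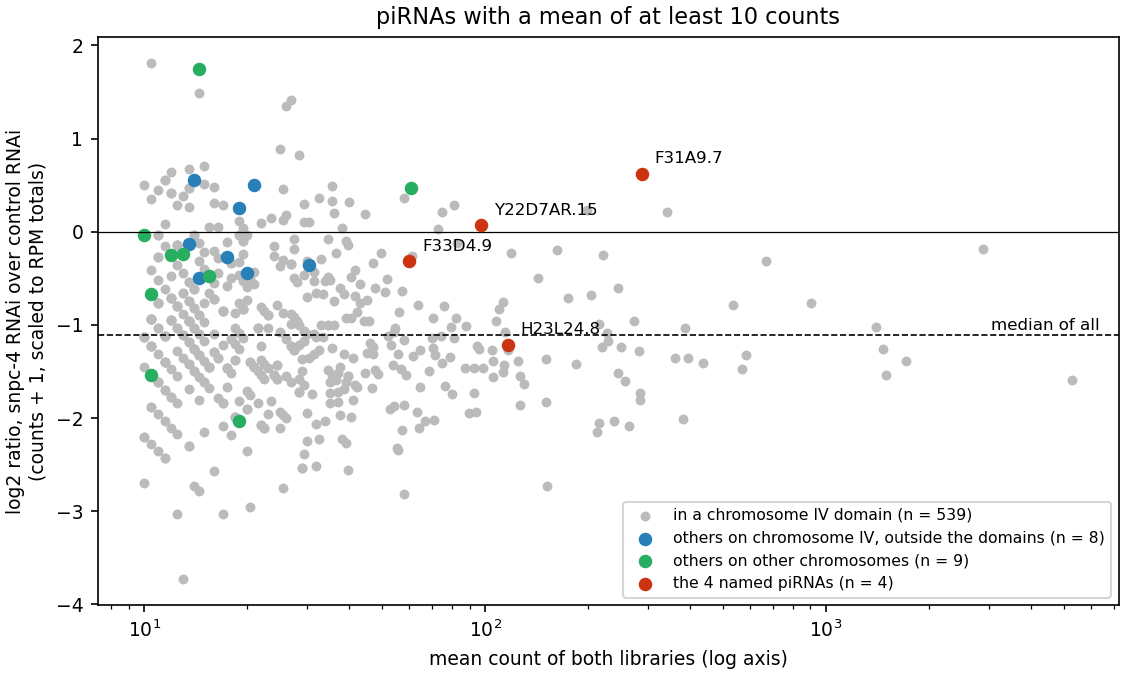
Log2 ratio of snpc-4 RNAi over control RNAi (counts with 1 read added, scaled to the RPM totals) against the mean count of both libraries on a log axis, 1 point for each of the 560 piRNAs averaging 10 or more counts; the dashed line is their median of -1.11. F31A9.7 lies above 549 of the 560 points, H23L24.8 near the median.

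The log2 ratios of the 4 were 0.62 for F31A9.7, 0.07 for Y22D7AR.15, -0.32 for F33D4.9 and -1.21 for H23L24.8. The median of the 560 piRNAs was -1.11, with quartiles of -1.54 and -0.51. F31A9.7 had a higher log2 ratio than 549 of them, Y22D7AR.15 than 507, F33D4.9 than 451 and H23L24.8 than 251. H23L24.8 was therefore near the middle of the class and the other 3 in its upper part.

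The comparison with domain piRNAs of like abundance again put H23L24.8 apart from the other 3. Within 1.5-fold of the mean count of F31A9.7 there were 24 domain piRNAs, with a median log2 ratio of -1.26 and a highest value of 0.23, so all 24 were below F31A9.7. For Y22D7AR.15, 43 of 45 such piRNAs were below it and 2 above, with a median of -1.27. For F33D4.9, 70 of 79 were below and 9 above, with a median of -1.22. H23L24.8 lay within its group: 23 of 37 were below it and 14 above, and the median of -1.34 was close to its own -1.21.

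**Figure D3:**
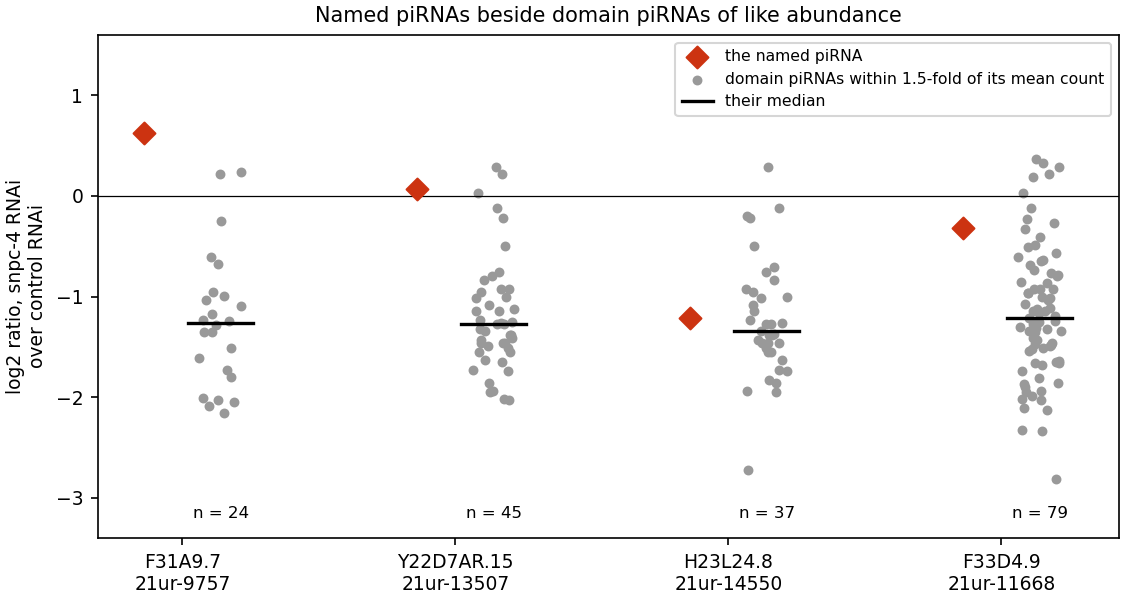
Log2 ratio of snpc-4 RNAi over control RNAi for each of the 4 piRNAs (diamonds) beside the domain piRNAs within 1.5-fold of its mean count (grey points, spread sideways for sight, n = 24, 45, 37 and 79), with their median as a bar. All 24 grey points lie below F31A9.7, while H23L24.8 lies among its group.

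Single domain piRNAs show the contrast. The 5 nearest to F31A9.7 in mean count were 21ur-4857, 21ur-7129, 21ur-1526, 21ur-1486 and 21ur-1779, with RPM ratios between 0.234 and 0.515. 21ur-4857, the closest, had 129 counts in the snpc-4 RNAi library and 442 in the control library. The 5 nearest to Y22D7AR.15 were 21ur-1656, 21ur-8040, 21ur-6169, 21ur-5432 and 21ur-531, with ratios between 0.256 and 0.422, the first with 53 counts in the snpc-4 RNAi library and 144 in the control library. All 10 of these were below the piRNA outside the domains to which they are close in abundance.

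The 5 nearest to F33D4.9 were 21ur-1492, 21ur-2290, 21ur-5345, 21ur-1800 and 21ur-1837. Their ratios ran between 0.269 and 0.830, and 21ur-1492, with 56 counts in the snpc-4 RNAi library and 66 in the control library, had nearly the counts of F33D4.9 itself. 21ur-5663 and 21ur-8984 had the same mean count as 21ur-1800 and 21ur-1837, 58, and were left out only by order of transcript name. Their log2 ratios were 0.36 and -2.81, above and below those of the 5, so the range depends on how this tie was settled. The 5 nearest to H23L24.8 were 21ur-5031, 21ur-471, 21ur-1122, 21ur-3380 and 21ur-5878, with ratios between 0.367 and 0.855. 21ur-5031 had the same mean count as H23L24.8 and nearly the same counts, 69 in the snpc-4 RNAi library and 164 in the control library.

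Domain piRNAs with nearly the same log2 ratio were found for 3 of the 4. Likeness was taken as the nearest log2 ratio within 1.5-fold of the mean count, over these 2 libraries. For F31A9.7 the nearest log2 ratios were those of 21ur-12276 (log2 ratio 0.23), 21ur-15698 (0.22) and 21ur-2004 (-0.25), all below its 0.62. The interval of the RPM ratio of 21ur-12276, 0.963 to 1.44, still overlaps that of F31A9.7. For Y22D7AR.15 they were 21ur-13641 (0.03), 21ur-2850 (0.22) and 21ur-4052 (-0.12). For H23L24.8 they were 21ur-6169 (-1.23), 21ur-8040 (-1.26) and 21ur-5031 (-1.27). For F33D4.9 they were 21ur-5980 (-0.33), 21ur-1492 (-0.27) and 21ur-3387 (-0.23). All 12 lie in the right domain, which holds 87.8% of the domain piRNAs averaging 10 or more counts.

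The 4 have few piRNA genes around them. Neighbours were read from the gene order of RefSeq assembly WBcel235; the sources used here do not give the build behind the counts, so no coordinates are printed. Among the 20 annotated genes that flank each one, 10 a side, F31A9.7 and Y22D7AR.15 had 0 other piRNA genes, F33D4.9 had 2 and H23L24.8 had 3. The median was 19 of 20 for the 14401 piRNAs of the domains and 1 of 20 for the 962 outside. That contrast follows from how the domains are defined.

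Each of the 4 lies within the bounds of another annotated gene. F31A9.7 lies in linc-75 (F31A9.8), a long non-coding RNA gene, between arg-1, which encodes a protein of the Notch ligand family, and the non-coding F31A9.2. Y22D7AR.15 lies in fbxa-13 (Y22D7AR.11), an F-box gene, between spex-3 and Y22D7AR.2. H23L24.8 lies in ttll-11 (H23L24.3), which encodes a tubulin-modifying enzyme, between ints-6, for an Integrator subunit, and npr-44, a neuropeptide receptor gene. F33D4.9 lies in itr-1 (F33D4.2), the gene of the inositol trisphosphate receptor, between the non-coding F33D4.12 and the neuropeptide gene flp-13.

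Lying within another gene is common among piRNAs. It held for 57.8% of all piRNAs outside the domains and for 38.8% of those inside. Within protein-coding genes alone the share was 54.4% outside the domains and 36.6% inside. Whether exon or intron holds them, and on which strand, was not analysed here. The sources used here do not say how strand and overlapping genes were treated in the counting, so reads from the surrounding gene's own RNA cannot be told apart from piRNA reads by these tables. The 4 surrounding genes are not listed in them.

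In the domains the ratio was nearly the same within and outside protein-coding genes. Of 539 domain piRNAs averaging 10 or more counts, 201 lie in protein-coding genes, with a median log2 ratio of -1.11, and the other 338 had a median of -1.13. Outside the domains the medians were -0.34 for 10 piRNAs in protein-coding genes and -0.13 for 11 others. Neither gap was tested.

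The piRNA genes next to the 4 had few reads. H23L24.9 and H23L24.7, which flank H23L24.8, had 0 and 1 counts in the snpc-4 RNAi library and 1 and 2 in the control library. Y82E9BR.24, before Y22D7AR.15, had 2 counts in the snpc-4 RNAi library and 5 in the control library. C08G9.3, before F33D4.9, had 0 counts in the snpc-4 RNAi library and 2 in the control library. The remaining neighbours F09E10.12, F52D2.11, C39B5.13 and F33D4.10 were at 0 in both libraries. The 4 were chosen for their counts, so nothing is read from this gap.

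Beside the 4, a further 17 piRNAs outside the domains averaged 10 or more counts, 8 on chromosome IV and 9 on other chromosomes. Those just below the chosen ones in mean count were R04B5.12 (21ur-13441) on chromosome V, with 71 counts in the snpc-4 RNAi library and 50 in the control library, and K10D11.9 (21ur-8871) on chromosome IV, with 27 in the snpc-4 RNAi library and 34 in the control library. R04B5.12 had a slightly higher mean than F33D4.9, 60.5 against 60 counts, and was passed over because each group gave 2. It lies in nhr-205, a nuclear hormone receptor gene, and its RPM ratio was 1.39 (0.954 to 2.04).

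Of these 17, 12 were lower and 5 higher in the snpc-4 RNAi library, against 89.6% lower among the 560. The median log2 ratio of the 17 was -0.25, with quartiles of -0.47 and 0.26, against -1.11 over all 560. At least 2-fold lower were 2 of the 17, T04D1.6 (21ur-12047; 7 counts in the snpc-4 RNAi library and 31 in the control library) and C01G6.11 (21ur-8602; 5 in the snpc-4 RNAi library and 16 in the control library), against 55.7% of the 560. At least 2-fold higher was 1, F27E11.5 (21ur-15093; 23 counts in the snpc-4 RNAi library and 6 in the control library), against 0.893% of the 560. These 3 had under 10 counts in 1 library and reach the mean of 10 counts only through the library in which they are high. So does F02D10.9 (21ur-10601), with 8 counts in the snpc-4 RNAi library and 13 in the control library. The minimum itself thus selects for their difference, and nothing is read from these calls or from F02D10.9. The shares of the 560 hold such piRNAs too. The interval of the ratio included 1 for the 14 of the 17 that were neither 2-fold lower nor 2-fold higher.

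Relative to the rest of the class, 15 of the 17 had a ratio above 1, against 45.7% of the 560. The 15 include F27E11.5 and F02D10.9. Against 14.6% of the 560, the interval lay above 1 for 5 of the 17. These were R04B5.12 at 2.87 (1.97 to 4.21), F58G6.10 (21ur-15181) at 2.97 (1.54 to 5.87), C05C12.8 (21ur-10052) at 2.50 (1.25 to 5.04), F27E11.5 at 7.75 (3.07 to 23.3) and C25G4.12 (21ur-7439) at 3.12 (1.38 to 7.38). None of the 17 had an interval below 1, against 13.8% of the 560. As said above, the minimum selects for the difference of F27E11.5, T04D1.6, C01G6.11 and F02D10.9, so nothing is read from them here. The interval included 1 for the other 12, as it did for most of the 560. Few reads stand behind most of the 17.

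The remaining 10 had ratios above that of the class and below 1. On chromosome IV, K10D11.9, T07G12.19, Y59H11AR.7, C28D4.14 and K07F5.19 had RPM ratios of 0.777, 0.723, 0.823, 0.690 and 0.908. On chromosome V, T22G5.8 had 0.706 and F40F9.12 had 0.827. On chromosome X, C14F5.6 had 0.838, F02D10.9 had 0.602 and C02B8.9 had 0.978. F02D10.9 passes the minimum only through the control library, so nothing is read from its ratio. The class ratio was 0.484, and the intervals of all 10 include both 1 and that class ratio. By counting error alone, none of the 10 can thus be told apart from either.

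**Figure D4:**
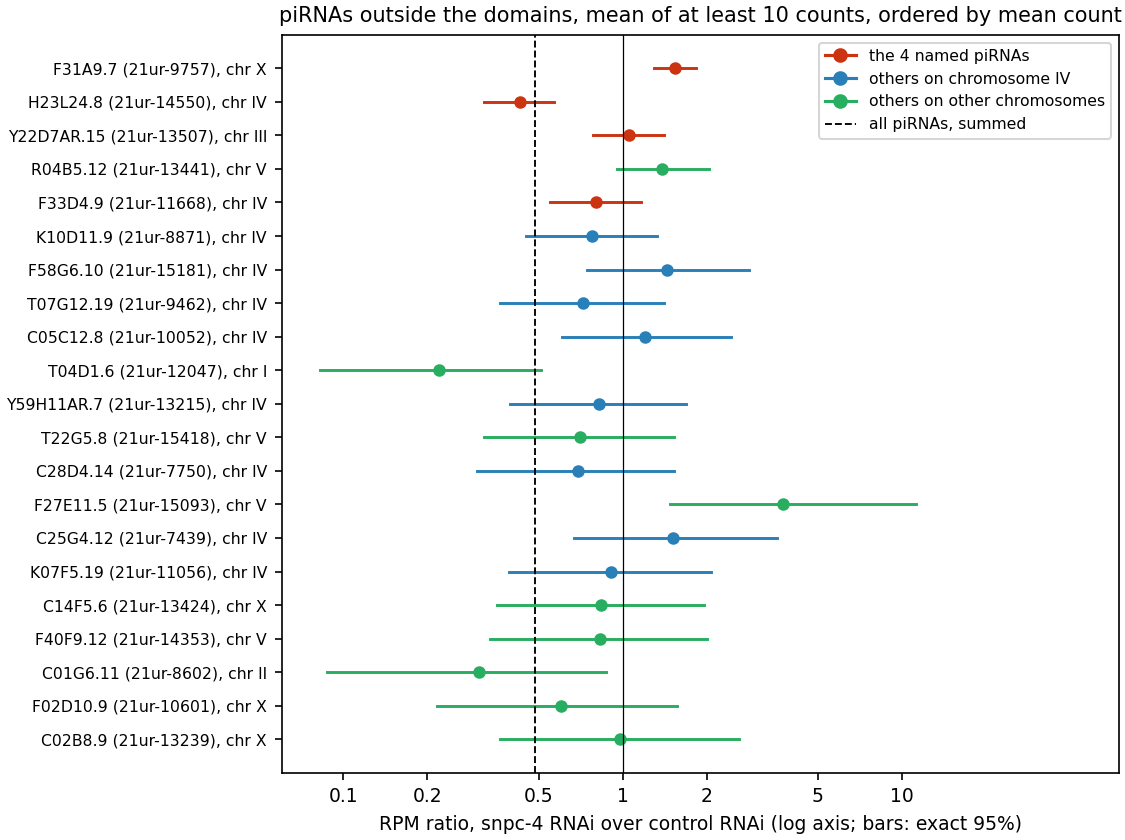
RPM ratio of snpc-4 RNAi over control RNAi, on a log axis with exact conditional 95% intervals, for the 21 piRNAs outside the domains averaging 10 or more counts, ordered by mean count; the solid line marks 1 and the dashed line the ratio of all piRNAs summed, 0.484. Of the 21, 3 lie left of the dashed line: H23L24.8, T04D1.6 and C01G6.11.

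The summed loci outside the domains had a higher ratio than those of the domains, both with the 4 and without them. All 962 had 1350 counts in the snpc-4 RNAi library and 1432 in the control library, or 4.21% of piRNA counts in the snpc-4 RNAi library and 2.21% in the control library, with a ratio of 0.922 (0.855 to 0.994). Without the 4 the ratio was 0.851 (0.772 to 0.938), against 0.474 (0.468 to 0.481) for the piRNAs of both domains. F33D4.9, K10D11.9 and C25G4.12 would count as domain piRNAs if the borders were moved out to 3, 8 and 12 Mb, and H23L24.8 would not. The odds ratio of the 958 others against the domain piRNAs was 1.79 (1.63 to 1.98), and that of the 4 was 2.19 (1.94 to 2.46).

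A single piRNA could move a chromosome's total. The 162 piRNAs of chromosome X had a ratio of 1.31 (1.14 to 1.52), with 453 counts in the snpc-4 RNAi library and 337 in the control library. Without F31A9.7 it was 0.865 (0.655 to 1.14), on 100 counts in the snpc-4 RNAi library and 113 in the control library. The 78 of chromosome III had 0.848 (0.670 to 1.07), and without Y22D7AR.15 0.550 (0.355 to 0.840), on 36 counts in the snpc-4 RNAi library and 64 in the control library. Both totals without the named piRNA were calculated after seeing the data. On chromosome IV outside the domains, the ratio was 0.735 (0.645 to 0.837) with H23L24.8 and F33D4.9, and 0.879 (0.746 to 1.03) without them.

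Most piRNAs outside the domains had no reads. In the snpc-4 RNAi library 230 of 962 had a read, 23.9%, and in the control library 237, 24.6%. Of the 14401 piRNAs in the domains, 18.6% had a read in the snpc-4 RNAi library and 21.5% in the control library. The 4 hold 42.9% of the snpc-4 RNAi counts outside the domains and 38.1% of the control counts.

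piRNAs are made in germ cells, and in whole animals fewer germ cells and less piRNA per germ cell cannot be told apart. The mir-35 family, microRNAs of oocytes and embryos, was the germline-linked readout at hand. Its 8 members summed to 16 counts in the snpc-4 RNAi library and 54 in the control library, a ratio of 0.290 (0.155 to 0.514). They were lower, as H23L24.8 and the class were and F31A9.7 was not, and their part in these results was not tested. Of the 8, only mir-35 averaged 10 or more counts, with 5 in the snpc-4 RNAi library and 15 in the control library. The family ratio thus rests on few reads. mir-41 was at 0 in both libraries and mir-42 had 0 counts in the snpc-4 RNAi library and 2 in the control library.

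Scaling decides the direction of those of the 4 that lie near a ratio of 1. Y22D7AR.15 had a log2 ratio of 0.07 as scaled here, but -0.07 when scaled to the listed counts and -0.13 to the microRNA counts. F33D4.9 had -0.32, but 0.11 when scaled by the median ratio over every transcript averaging 10 or more counts, of which 50.5% are piRNAs. F31A9.7 stayed above 0 and H23L24.8 below 0 under each of these scalings. F31A9.7 ran between 0.42 and 1.05 and H23L24.8 between -1.41 and -0.78.

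**Figure D5:**
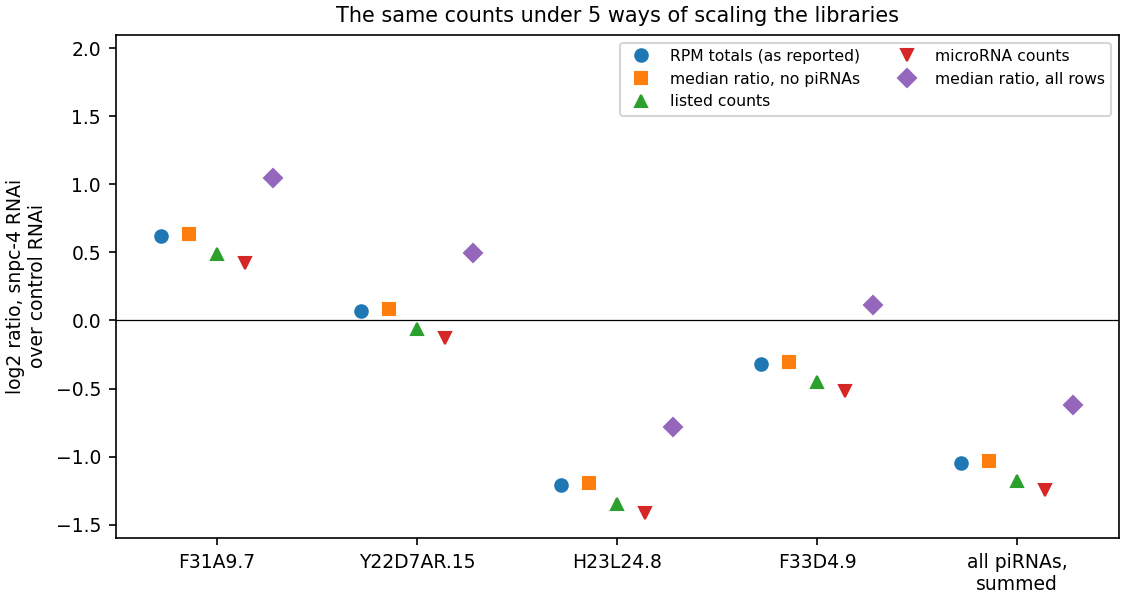
Log2 ratio of snpc-4 RNAi over control RNAi for the 4 piRNAs and for all piRNAs summed under 5 ways of scaling the libraries, 1 symbol each. F31A9.7 stays above 0, H23L24.8 and the class below 0, while Y22D7AR.15 and F33D4.9 change side.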

How the data were processed

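Small RNA libraries of 2 of the 14 samples were used, 1 for snpc-4 RNAi and 1 for control RNAi; the 12 chromatin samples were left out. Per the labels' protocols, inserts of 22 to 30 nucleotides were sequenced after an Illumina small RNA v1.5 preparation, while piRNAs are 21 nucleotides long. The submitters' processing notes name BWA. Its settings, the genome build, the counting tool and the treatment of reads that map to several places are not stated in any source used here. Each deposited table holds, per the file headers, a read count and an RPM value for each transcript. In the deposited RPM values, the count is divided by 1 constant per library.

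The 4 piRNAs, the lists and the alternatives were chosen with earlier results of these data known. Names, gene order and domain membership came from RefSeq WBcel235, in which 15363 of 15366 listed piRNAs were found. The named piRNAs are the 4, all others outside the domains with a mean of at least 10 counts, the 5 domain piRNAs nearest to each in mean count and the 3 nearest in log2 ratio within 1.5-fold of the mean count. The log2 ratio uses counts with 1 read added over the RPM totals, while plain ratios add none. Intervals are exact Poisson for counts and exact conditional for ratios and odds ratios. With 1 library a group no test was run. The planned search for the upstream motif was not run. Alternatives changed the scaling, the reads added, the minimum mean, the domain borders and the members of a list. The log2 ratio and the interval of the RPM ratio were tested on simulated Poisson counts, which hold counting error only. The other steps were not tested in this way. The software was SciPy 1.17.1, NumPy 2.4.6, pandas 2.3.3 and, for figures, matplotlib 3.10.9, under Python 3.11.15.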

Additional observations from a re-analysis of the deposited data

How the results depend on the processing

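No paired analysis was possible because each group has 1 library, and for the same reason no replicate could be left out. Of 90 alternative values, 57 had the reported sign and lay inside the reported interval (for counts, within 1.5-fold), 21 had that sign but lay outside, and 12 changed sign. Relative to RPM, log2 ratios shift by -0.14 with scaling to the listed counts, -0.20 to the microRNA counts and 0.43 by the median over all transcripts that pass the minimum, and by 0.014 with that median taken without piRNAs, which moved nothing out of its interval. Except where the shift, a dropped piRNA or the minimum is itself the change, the cause was not tested.

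Scaled to the listed counts, the log2 ratio was -0.065 for Y22D7AR.15 (reported 0.07), -0.083 for the 4 summed (0.05), -0.084 for the total of other chromosomes (0.05) and -1.18 for the class total (-1.05). Scaled to the microRNA counts, these were -0.13, -0.15, -0.15 and -1.25, and the total of chromosome IV outside the domains was -0.64 (-0.44). By the median ratio of all transcripts, F31A9.7 had 1.05, Y22D7AR.15 0.50, H23L24.8 -0.78, F33D4.9 0.11, the 4 summed 0.48, the class total -0.62, chromosome IV outside the domains -0.016 and other chromosomes 0.48. The medians over chromosome IV outside the domains and over other chromosomes were then 0.14 (-0.29) and 0.19 (-0.24), and 2 piRNAs outside the domains were at least 2-fold higher (reported 1). Without the named piRNAs the totals were -0.19 for chromosome IV outside the domains and -0.26 for other chromosomes, and that of other chromosomes was 0.30 over piRNAs averaging 10 or more counts. Without F31A9.7 the chromosome X total was -0.21 (0.39), and without R04B5.12 that of chromosome V was -0.11 (0.04). Moving the domain borders gives no value for other chromosomes, nor, for borders moved in, for the chromosome IV median, since the piRNAs stay the same. Without the 10 most abundant piRNAs the class total was -1.01.

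Of 21 piRNAs outside the domains, 3 were at least 2-fold lower (55.7% of the 560) and 1 higher (0.893%). By the median ratio of all transcripts 2 were lower, since H23L24.8 no longer was. With 1 RPM added, 1 was lower and 0 higher. With a minimum mean of 5 counts 9 were lower and 4 higher of 42, and with 1 count 57 lower and 23 higher of 201, where few reads set the ratio.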

Other observations

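Chromosomes I, II and V hold none of the 4. The 98 piRNAs of chromosome I summed to 49 counts in the snpc-4 RNAi library and 87 in the control library, a ratio of 0.551 (0.380 to 0.790). The 109 of chromosome II had 70 counts in the snpc-4 RNAi library and 86 in the control library, a ratio of 0.796 (0.572 to 1.10), and the intervals of chromosomes I and II overlap. The 202 of chromosome V had 232 counts in the snpc-4 RNAi library and 220 in the control library, a ratio of 1.03 (0.854 to 1.25). Without R04B5.12, a choice made after seeing the data, chromosome V had 161 counts in the snpc-4 RNAi library and 170 in the control library, a ratio of 0.926 (0.742 to 1.16). Differences between chromosomes were not tested.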
